A study of Mus musculus with 4 samples.

Results

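The 10 genes described here are known from dendritic cells, the antigen-presenting cells that prime T cells. They were chosen by name from the 24497 mouse gene rows of the expression table, and all 10 are present. Of these, 6 belong to dendritic cell maturation: Fscn1, Cd83, Marcks, Marcksl1, Il4i1 and Cacnb3. The other 4 mark dendritic cell identity: Zbtb46, Xcr1, Siglech and Tcf4. Their RNA was measured in mouse leukaemia cells driven by NRAS and AE9a, a truncated form of the AML1-ETO fusion. Both groups carry these 2 oncogenes, and both were cultured with SCF, IL-3 and IL-6 under G418 and puromycin. In the Tet2 KO group (2 libraries) the oncogenes were introduced into bone marrow stem cells of Tet2-/- mice, and in the WT group (2 libraries) into those of wild-type mice. The cells were grown in CD45.1+ recipients 6 to 8 weeks old that had received 900 cGy, and spleen cells positive for CD45.2, the form of the leukocyte protein CD45 by which donor cells are told from the host, were then enriched. The labels give neither the Tet2 allele nor the number of mice or leukaemia clones behind a library.

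Values are TPM, a length-corrected abundance that sums to the same total in every library. Estimated depth was 23.0 and 23.8 M reads (M, 1000000) in the Tet2 KO libraries, against 20.8 and 18.8 M reads in the WT libraries. The WT libraries differed from each other by little more than read sampling (robust variance 1.11 times that of sampling over 1970 genes), against 5.72 times for the Tet2 KO pair over 2095 genes. Over the 200 of these genes with the most reads, the ratio was 1.335 for WT and 186 for the Tet2 KO pair. For that reason the mean of both WT libraries entered the fits as 1 sample, and no SD is given for WT. Fits were made with limma on log2(TPM + 1), and an adjusted p below 0.05 counts as a call. The residual variance rests on the Tet2 KO pair, and WT is taken to vary alike. Whether libraries of a group are separate mice is not stated, so the p-values cover a spread between libraries that may be technical. Tet2 itself stood at 63.7 and 68.1 TPM in the Tet2 KO libraries and at 43.5 and 43.7 TPM in the WT libraries, a difference of 0.58 ± 0.19 (adjusted p = 0.0171). The targeted gene was thus not lower where the label says knockout, and a whole-gene value checks no deletion of an exon; Tet2 KO below stands for the libraries labelled so. The pan-leukocyte gene Ptprc stood at 413 and 396 TPM in Tet2 KO, against 292 and 296 TPM in WT. Of the 3 genes related to the introduced oncogenes, Nras stood at 276 and 356 TPM in Tet2 KO, against 159 and 161 TPM in WT, and Runx1t1 at 146 and 205 TPM in Tet2 KO, against 31.6 and 30.9 TPM in WT. The third, Runx1, stood at 98.3 and 101 TPM in Tet2 KO, against 92.2 and 89.7 TPM in WT, and did not pass (adjusted p = 0.607).

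Dendritic cells arise under the receptor tyrosine kinase Flt3. Conventional dendritic cells, which express the transcription factor Zbtb46, comprise a type 1 subset that carries the chemokine receptor Xcr1 and cross-presents antigen to CD8+ T cells, and a type 2 subset. Plasmacytoid dendritic cells depend on the E protein Tcf4, carry the lectin Siglech, and secrete type I interferon. On maturation, dendritic cells remodel their actin with Fscn1, display Cd83 and costimulatory proteins, and migrate to T cell zones under the chemokine receptor Ccr7. Several of the genes are also used elsewhere: Cd83 in activated B cells, Tcf4 in B cell precursors, and Marcks and Marcksl1 in macrophages and many other cells.

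Of the 10 genes, 8 fell in Tet2 KO cells, Marcksl1 did not pass the test, and Cacnb3 lay below the filter and was not tested. None rose: 0 had a positive difference at an adjusted p, or at an unadjusted p, under 0.05 in limma. On the log2(TPM + 1) scale the largest falls were those of Il4i1, Tcf4, Cd83 and Fscn1, whose mean TPM in Tet2 KO was 2.38%, 4.42%, 6.01% and 4.26% of that in WT. By the ratio of mean TPM Siglech stood lowest, at 1.40%, but with 1 Tet2 KO library listed at 0. Across all 11919 tested genes 26.7% were called lower and 22.1% higher, so falls were common in this comparison. The median log2 difference was -1.78 over the 9 tested members and -0.12 over all tested genes. Fscn1 and Siglech reached 1 TPM only in the WT libraries and so passed the filter through the group in which they were high. With values scaled to the ERCC spike-in total, the median of all tested genes moved from -0.12 to 0.43. Of all calls 76.8% were then higher, against 45.2% unscaled. Among the 10 genes 6 were then called lower and 0 higher, where 1492 of all 11919 tested genes were lower and 4942 higher. Without the filter on low values 0 of the 10 were called, over 18594 genes tested.

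**Figure D1:**
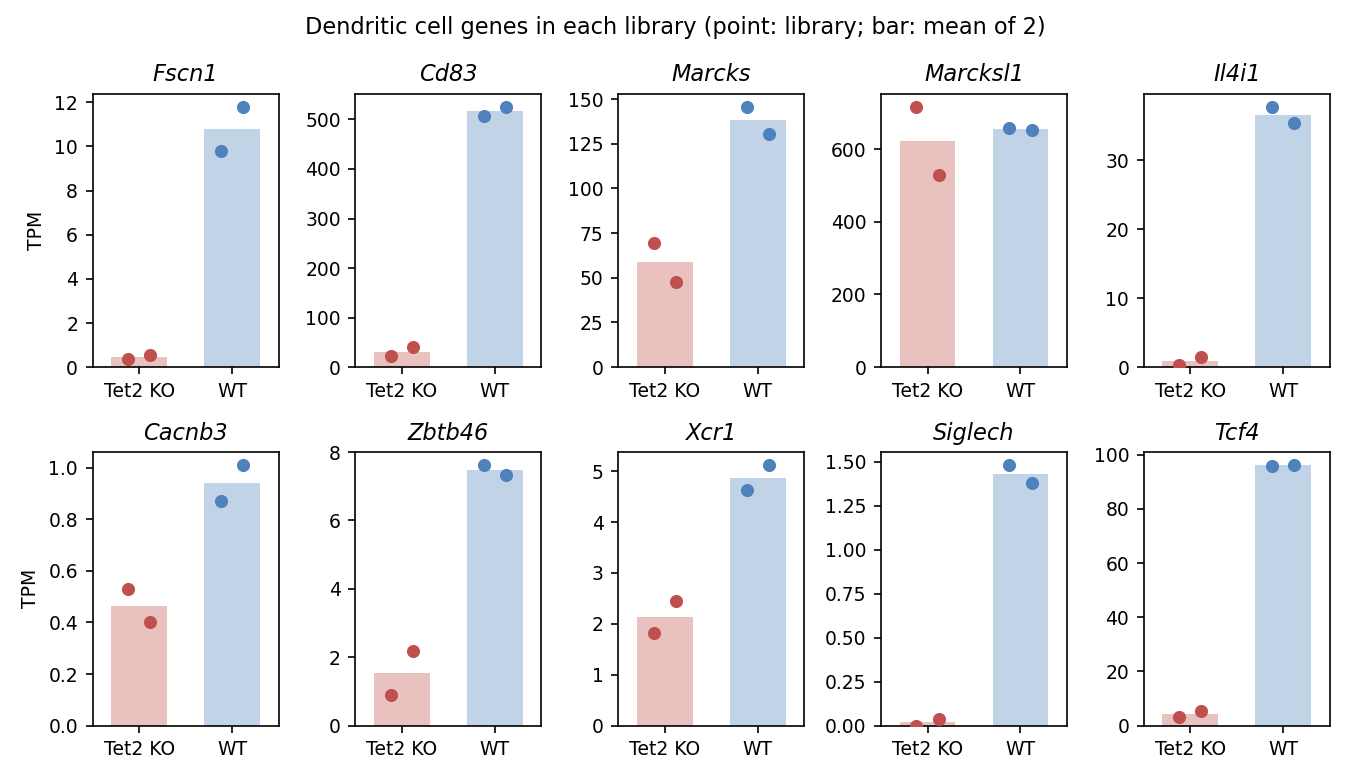
TPM of each of the 10 genes (vertical axes, linear and starting at 0, a different scale in each panel), with Tet2 KO left and WT right; points are libraries and bars are means of 2 libraries. Both Tet2 KO libraries lie below both WT libraries in every panel but that of Marcksl1, where the WT libraries at 658 and 652 TPM lie between the Tet2 KO libraries at 717 and 528 TPM. How many of all tested genes separate in this way was not counted, so the separation is not read as particular to these genes.

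Sequences just upstream of a RefSeq start are shown for 3 of the fallen genes. They were chosen because they hold the E-box recognised by E proteins, the class to which Tcf4 belongs. RefSeq promoters (GRCm38.p6) were found for 7 of the 10 genes, 8 windows in all, and the 250 bases before each start were searched on both strands. The E-box CACCTG was present for Il4i1, Siglech and Zbtb46, that is for 3 of 7 genes and in 3 of 8 windows. It was present in 17.2% of all 32851 promoter windows and in 15.3% of the 11542 windows of tested genes. The windows of Fscn1 and Xcr1, which also fell, held none. The windows are those of Il4i1 on the plus strand (chr7:44836038-44836287), Siglech on the plus strand (chr7:55767934-55768183) and Zbtb46 on the minus strand (chr2:181424389-181424638), printed 5′ to 3′ with each matched motif in capitals.
Il4i1: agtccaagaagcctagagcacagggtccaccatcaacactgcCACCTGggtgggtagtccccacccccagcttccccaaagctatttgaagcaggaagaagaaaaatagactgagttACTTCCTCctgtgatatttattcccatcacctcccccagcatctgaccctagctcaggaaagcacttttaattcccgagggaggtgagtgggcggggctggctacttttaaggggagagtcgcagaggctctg
Siglech: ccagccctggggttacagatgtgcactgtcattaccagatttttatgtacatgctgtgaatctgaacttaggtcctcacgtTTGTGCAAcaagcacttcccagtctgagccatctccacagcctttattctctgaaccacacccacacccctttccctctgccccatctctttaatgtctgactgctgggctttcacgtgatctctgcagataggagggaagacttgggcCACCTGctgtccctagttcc
Zbtb46: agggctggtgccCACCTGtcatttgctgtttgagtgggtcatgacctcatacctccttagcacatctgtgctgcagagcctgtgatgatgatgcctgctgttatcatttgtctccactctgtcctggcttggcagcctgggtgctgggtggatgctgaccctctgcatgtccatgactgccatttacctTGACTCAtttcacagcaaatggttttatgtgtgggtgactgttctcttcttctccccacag

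In the Il4i1 window the capitals mark CACCTG at position -208, counted back from the start, and the PU.1 motif GAGGAAGT on the other strand at position -133. In the Siglech window they mark the C/EBP motif TTGCNNAA, read on either strand, and CACCTG, at positions -169 and -20. In the Zbtb46 window they mark CACCTG at position -238 and the AP-1 motif TGANTCA at -61. All 3 RefSeq starts lie inside the GENCODE span of their gene, that of Siglech close to its edge. The windows of Il4i1 and Zbtb46 lie wholly within the gene, at chr7:44816387-44840809 and chr2:181387762-181459426. Those windows are therefore internal sequence and not the sequence before the outermost start of the gene. The PU.1 motif occurred in 2.44% of all windows, the C/EBP motif in 9.56% and the AP-1 motif in 6.75%. The ISRE core GAAANNGAA, read by interferon-activated factors, was present for Cacnb3 only among the 7 genes and in 7.13% of all windows. The EICE core GGAANNGAA and the kappaB core GGGNNTTCC were found for 0 of the 7 genes, against 6.99% and 4.98% of all windows. These matches describe letters in 1 window per start site and show no binding.

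The maturation genes are taken first. Fscn1 encodes fascin, which bundles actin into the long processes of mature dendritic cells (chromosome 5, 142960343 to 142973185, plus strand, mm10). It stood at 0.37 and 0.55 TPM in the Tet2 KO libraries, against 9.79 and 11.8 TPM in the WT libraries. The groups did not overlap, and Fscn1 fell by 3.02 ± 0.28 on the log2 scale (SE; adjusted p = 2.74e-07). The other fascins, Fscn2 and Fscn3, did not exceed 0.60 TPM anywhere. Fscn1 was a low-abundance transcript, with an estimated 10 and 16 reads in Tet2 KO and 241 and 263 reads in WT.

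Cd83 encodes a surface protein that keeps MHC class II and CD86 on mature dendritic cells (chromosome 13, 43784775 to 43803132, plus strand). It stood at 22 and 40.1 TPM in Tet2 KO, against 507 and 526 TPM in WT. Each Tet2 KO library was more than 10 times below each WT library, a log2 difference of -4.07 ± 0.39 (adjusted p = 0.00168). Cd83 was the second most abundant of the 10 genes in WT and the third in Tet2 KO.

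Marcks and Marcksl1 are paralogs that bind actin, calmodulin and membrane lipids and are released from the membrane when protein kinase C phosphorylates them. Marcks (chromosome 10, 37133375 to 37138920, minus strand) stood at 69.6 and 47.8 TPM in Tet2 KO, against 146 and 131 TPM in WT. The groups did not overlap, and Marcks fell by 1.25 ± 0.23 (adjusted p = 0.000918), a call lost with ERCC scaling (-0.66, adjusted p = 0.106). Marcksl1 (chromosome 4, 129513581 to 129515985, plus strand) stood at 717 and 528 TPM in Tet2 KO, against 658 and 652 TPM in WT. One Tet2 KO library was above both WT libraries and the other below both, and the difference of -0.09 ± 0.27 did not pass (adjusted p = 0.803). It was 0.50 with ERCC scaling, 0.01 with quantile normalization and with median centring, -0.31 without Tet2 KO replicate 1 and 0.13 without Tet2 KO replicate 2, so no direction is given for Marcksl1. The ratio of Marcks to Marcksl1 within a library, computed from TPM as deposited, was 0.0970 and 0.0906 in Tet2 KO, against 0.221 and 0.2002 in WT.

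Il4i1 encodes a secreted oxidase of aromatic amino acids made by mature dendritic cells and macrophages (chromosome 7, 44816387 to 44840809, plus strand). It stood at 0.31 and 1.43 TPM in Tet2 KO, against 37.8 and 35.4 TPM in WT, and it fell by 4.40 ± 0.38 (adjusted p = 2.51e-06). That was the largest difference among the 10 genes, rank 94 from the bottom of 11919. The Tet2 KO libraries differed from each other 4.61-fold, on an estimated 8 and 36 reads. The gene overlaps Nup62 on the same strand in the annotation. Nup62 stood at 44.2 and 56.4 TPM in Tet2 KO and 61.1 and 63.8 TPM in WT, and did not pass (adjusted p = 0.208), so the split of shared reads between them is uncertain. Atf5, which overlaps on the opposite strand, stood at 44.0 and 80.9 TPM in Tet2 KO, against 149 and 150 TPM in WT (adjusted p = 0.0725), and whether counting used strand is not stated.

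Cacnb3 encodes a beta subunit of voltage-gated calcium channels (chromosome 15, 98630840 to 98644529, plus strand). It stood at 0.53 and 0.40 TPM in Tet2 KO, against 0.87 and 1.01 TPM in WT. Only 1 library reached 1 TPM, so Cacnb3 was not tested. The Tet2 KO values lay below both WT values, on an estimated 16 and 12 reads against 23 and 24 reads. Without the filter its difference was -0.41, with an adjusted p of 0.183.

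Of the identity genes, Zbtb46 encodes a zinc finger factor of conventional dendritic cells and their committed precursors (chromosome 2, 181387762 to 181459426, minus strand). It stood at 0.91 and 2.17 TPM in Tet2 KO, against 7.62 and 7.32 TPM in WT. Both Tet2 KO libraries were below WT although they differed from each other 2.38-fold, and Zbtb46 fell by 1.78 ± 0.34 (adjusted p = 0.000732).

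Xcr1, the receptor for the chemokine XCL1 (chromosome 9, 123852315 to 123862029, minus strand), stood at 1.83 and 2.45 TPM in Tet2 KO, against 4.62 and 5.12 TPM in WT. The groups were apart, with a log2 difference of -0.91 ± 0.30 (adjusted p = 0.0208). The call was lost with ERCC scaling (-0.46, adjusted p = 0.191) and with quantile normalization (-0.77, adjusted p = 0.0569).

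Siglech, the plasmacytoid dendritic cell lectin (chromosome 7, 55768178 to 55778925, plus strand), was listed at 0 and 0.04 TPM in Tet2 KO, against 1.48 and 1.38 TPM in WT. These are an estimated 0 and 1 reads in Tet2 KO and 24 and 20 reads in WT. The fall of 1.25 ± 0.22 (adjusted p = 0.000235) is on the log2(TPM + 1) scale, which understates changes at such low levels. With a pseudocount of 0.1 the difference was -3.69, and with one of 5 it was -0.36; both passed. For Fscn1 these values were -4.30 and -1.53, and for Zbtb46 -2.32 and -0.94.

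Tcf4 encodes the E protein E2-2, which directs plasmacytoid dendritic cell development (chromosome 18, 69343356 to 69689079, plus strand). It stood at 3.22 and 5.27 TPM in Tet2 KO, against 96.0 and 96.2 TPM in WT. The groups were far apart, and Tcf4 fell by 4.24 ± 0.30 (adjusted p = 3.24e-08), rank 104 from the bottom of 11919 genes. Unlike Siglech, it was well expressed in WT, with an estimated 2885 and 2615 reads. The ratio of Tcf4 to its partner Tcf12 within a library was 0.158 and 0.251 in Tet2 KO, against 1.84 and 1.94 in WT.

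**Figure D2:**
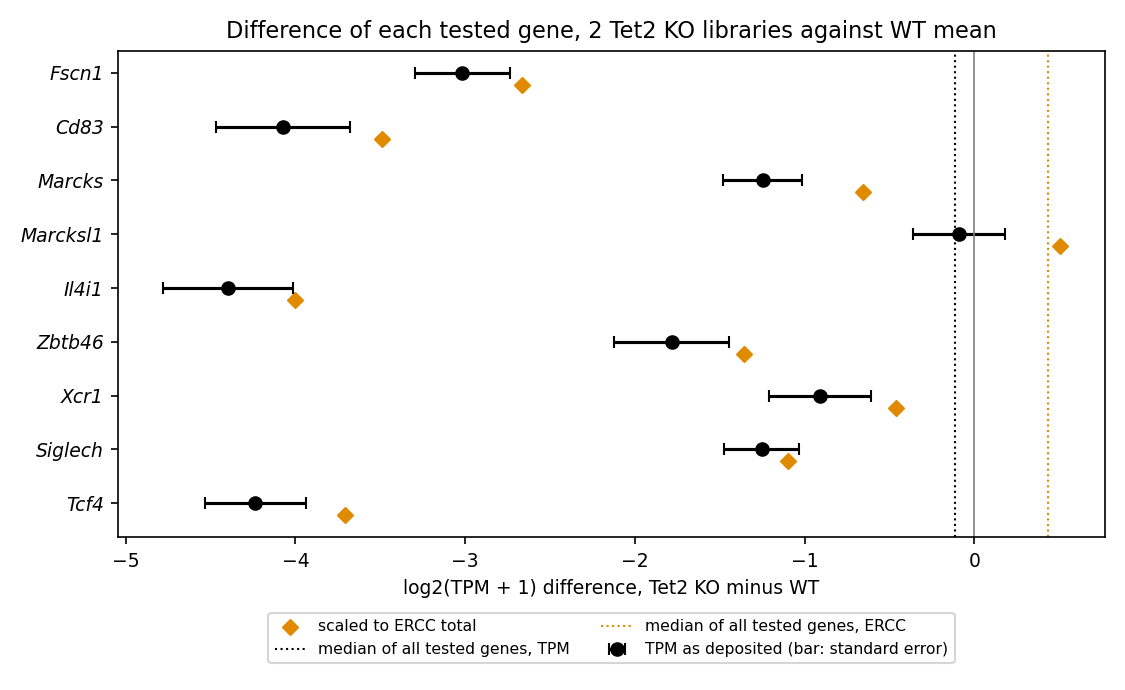
Difference in log2(TPM + 1), Tet2 KO minus WT, for the 9 tested genes (horizontal axis; circles with standard errors for TPM as deposited, diamonds for ERCC scaling, dotted lines for the medians of all tested genes at -0.12 and 0.43). Il4i1, Tcf4, Cd83 and Fscn1 lie at or beyond -3.02 as deposited, and Marcksl1 lies at the median of all genes under both scalings.

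The levels, which TPM makes comparable between genes, spanned a wide range. In WT they ran from Marcksl1 and Cd83 through Marcks, Tcf4, Il4i1, Fscn1, Zbtb46, Xcr1 and Siglech to Cacnb3, and no neighbours in that order overlapped between libraries. In Tet2 KO Marcksl1 stayed the highest, followed by Marcks, Cd83 and Tcf4 without overlap. Below them Xcr1 and Zbtb46 overlapped at 1.83 to 2.45 TPM and 0.91 to 2.17 TPM, as did Il4i1 with Zbtb46, Cacnb3 and Fscn1. Their order in Tet2 KO is therefore not resolved. Siglech was the lowest in Tet2 KO.

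Because several genes are shared with other cells, the identity lists of dendritic cells were examined as a whole. Of 45 genes in 4 identity lists (shared conventional, type 1, type 2 and plasmacytoid), 32 were tested, of which 19 fell and 3 rose. The fallen genes include Zbtb46, Xcr1, Siglech and Tcf4 themselves. Outside the 10 genes, 8 of 12 tested fell and 2 rose in the shared list. In the type 1 list 3 of 6 fell and 0 rose, as in the plasmacytoid list. In the type 2 list 1 of 4 fell and 1 rose. Across all tested genes 26.7% fell and 22.1% rose. The 13 untested genes, among them the type 1 markers Clec9a and Batf3, the type 2 marker Cd209a and the plasmacytoid marker Ccr9, were at or under 1.53 TPM in every library. Clec9a stood at 0.53 and 0.13 TPM in Tet2 KO, against 0.13 and 0.31 TPM in WT, and Batf3 at 0.13 and 0.51 TPM in Tet2 KO, against 0 in both WT libraries. That these are low follows from the filter. Other genes of the same lists were well expressed in WT, among them Flt3 at 71.0 and 69.3 TPM, Irf8 at 64.1 and 62.8 TPM and Cadm1 at 40.5 and 41.8 TPM. The lists thus hold both low and abundant genes in WT, and no share of dendritic cells is read from the 10 genes. In bulk RNA, fewer cells of a type and less RNA per cell cannot be told apart.

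Among the 13 tested genes shared by conventional dendritic cells, 9 fell and 2 rose, with a median of -1.78. Flt3 fell to 2.63 and 2.45 TPM in Tet2 KO, against 71.0 and 69.3 TPM in WT (-4.33 ± 0.29). Slamf7, an activating receptor, fell by 3.39 ± 0.32 and Haao, an enzyme of tryptophan breakdown, by 3.32 ± 0.29. Anpep, an aminopeptidase also carried by granulocytes and monocytes, rose by 2.44 ± 0.30 and the protease inhibitor Spint2 by 2.47 ± 0.21.

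In the type 1 list 4 of 7 tested genes fell and 0 rose by limma, also at an unadjusted p under 0.05, with a median of -0.91. With ERCC scaling 1 rose, where 4942 of all 11919 tested genes rose. Cadm1, an adhesion molecule of type 1 cells, fell to 0.31 and 0.37 TPM in Tet2 KO, against 40.5 and 41.8 TPM in WT (-4.98 ± 0.30). Irf8, the factor required for that lineage, fell by 2.89 ± 0.27. Tlr3, a sensor of double-stranded RNA, stood at 0.06 TPM in both Tet2 KO libraries, against 6.55 and 6.38 TPM in WT (-2.82 ± 0.25). Cadm1 and Tlr3 reached 1 TPM only in WT, through which they passed the filter. In the type 2 list 4 genes were tested, with a median of 0.33. By limma 1 fell and 1 rose, and 2 were higher at an unadjusted p under 0.05. The one without a call, Mgl2, stood at 8.38 and 21.7 TPM in Tet2 KO, against 3.23 and 3.34 TPM in WT (adjusted p = 0.0755). Irf4, a factor of type 2 cells, fell by 0.92 ± 0.33 (adjusted p = 0.0333), a call lost with ERCC scaling, quantile normalization and limma without trend and robust estimation. The inhibitory receptor Sirpa rose by 0.78 ± 0.27 (adjusted p = 0.0302), a call lost with quantile normalization, median centring and limma without trend and robust estimation.

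In the plasmacytoid list 5 of 8 tested genes fell, 6 at an unadjusted p under 0.05, and 0 rose by limma, also at an unadjusted p. With ERCC scaling 1 rose, where 4942 of all 11919 tested genes rose. Besides Tcf4 and Siglech the fallen genes included Irf7, the interferon-induced regulator of type I interferon genes, at -4.64 ± 0.22. The others were Bst2, which encodes tetherin, at -3.76 ± 0.43, and Cox6a2, a subunit of cytochrome oxidase, at -0.98 ± 0.34. Irf7 and Bst2 are also interferon-induced in many cell types. Cox6a2 was tested under 13 of the 14 alternatives and lost its call under 6 of them, all 3 other scalings included. Runx2, a further plasmacytoid factor, stood at 15.4 and 18.4 TPM in Tet2 KO, against 11.8 and 12.9 TPM in WT (adjusted p = 0.205).

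The mature migratory programme, of which 6 of the 10 genes are part, had 24 tested genes, with 18 lower, 5 higher and a median of -1.73. Of all tested genes 26.7% were lower and 22.1% higher, with a median of -0.12. Outside the 10 genes 14 of 19 fell and 5 rose. Ccl22, a chemokine secreted by mature dendritic cells, stood at 1.41 and 2.01 TPM in Tet2 KO, against 409 and 406 TPM in WT (-7.24 ± 0.27). Ccr7 fell to 1.80 and 2.54 TPM in Tet2 KO, against 267 and 272 TPM in WT (-6.43 ± 0.28), and the signalling adaptor Traf1 fell by 3.17 ± 0.20. In the other direction Mreg, which encodes melanoregulin, stood at 118 and 79.3 TPM in Tet2 KO, against 2.00 and 2.30 TPM in WT (4.96 ± 0.25). Pdcd1lg2, which encodes PD-L2 and reached 1 TPM only in Tet2 KO, rose by 1.87 ± 0.34 and the annexin Anxa3 by 1.44 ± 0.20. The programme was therefore not lower throughout, and its share of higher calls was near that of all tested genes. Like Fscn1 and Pdcd1lg2, Il12b (lower) and Nudt17 (higher) among these calls reached 1 TPM only in the group in which they were high.

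**Figure D3:**
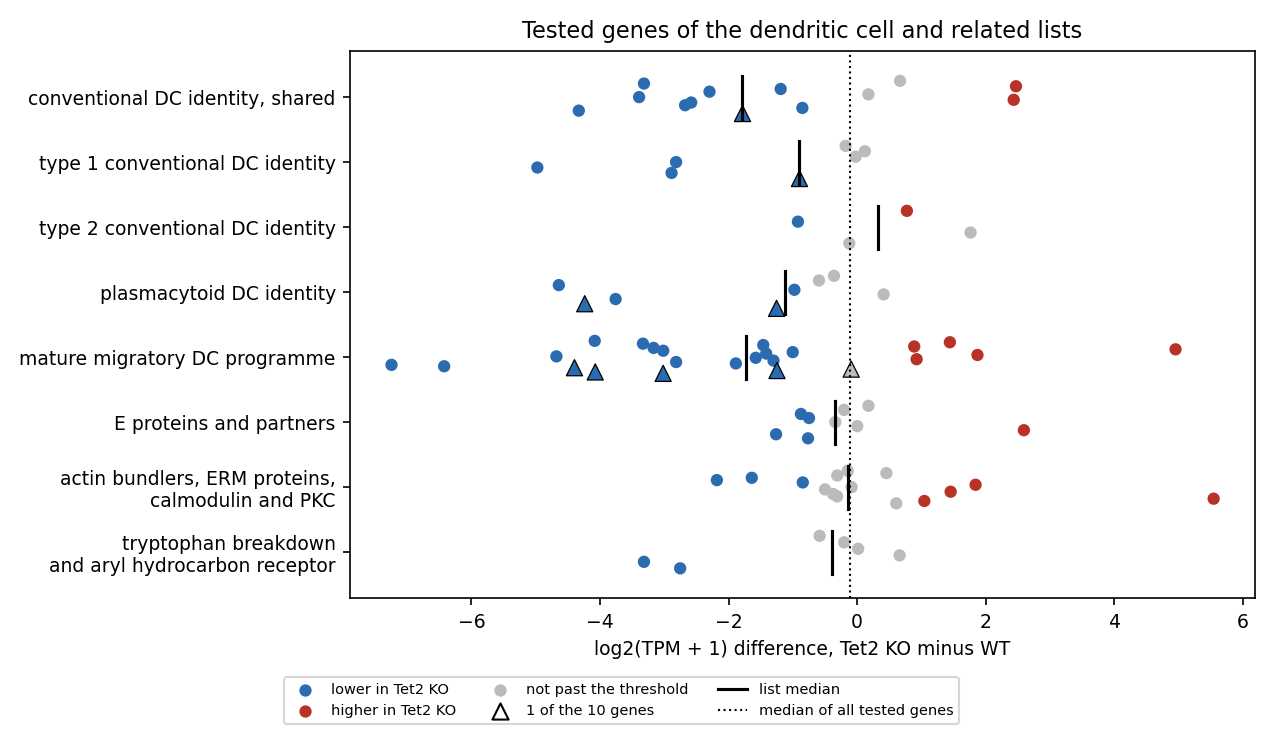
Difference in log2(TPM + 1), Tet2 KO minus WT, for tested genes of 8 lists (horizontal axis; each point a gene, blue called lower, red called higher, grey not past the threshold, triangles the genes described here, black bars list medians, dotted line the median of all tested genes). In the mature migratory list 18 genes lie on the lower side as calls and 5 on the higher side, with Mreg at 4.96. Of all tested genes 26.7% were called lower and 22.1% higher.

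Partners of Tcf4 were compared next. E proteins bind DNA as dimers and are held inactive by Id proteins. Of 9 genes 4 fell and 1 rose, with a median of -0.34, where 26.7% of all tested genes fell and 22.1% rose. With ERCC scaling 1 fell and 1 rose, where 1492 of all 11919 tested genes fell and 4942 rose. Tcf12 stood at 20.3 and 21.0 TPM in Tet2 KO, against 52.1 and 49.7 TPM in WT (-1.26 ± 0.22). The repressors Zeb2 and Zeb1 fell by 0.87 ± 0.20 and 0.75 ± 0.25, and both calls were lost with ERCC scaling, that of Zeb1 also with quantile normalization. The inhibitor Id1 rose to 60.2 and 47.2 TPM in Tet2 KO, against 6.99 and 8.96 TPM in WT (2.60 ± 0.23). Id2, which opposes Tcf4 in dendritic cell fate, stood at 210 and 196 TPM in Tet2 KO, against 201 and 204 TPM in WT (adjusted p = 0.990).

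Actin-binding proteins and the kinases that act on fascin and Marcks were called about as often as all tested genes. Of 15 tested genes 4 rose and 3 fell, where 22.1% of all tested genes rose and 26.7% fell, with a median of -0.15. With ERCC scaling 7 rose and 2 fell, where 4942 of all 11919 tested genes rose and 1492 fell. Actn1, an actin cross-linker, rose to 630 and 450 TPM in Tet2 KO, against 10.0 and 10.8 TPM in WT (5.55 ± 0.23), and Ezr, which encodes ezrin, rose by 1.46 ± 0.23. Among protein kinase C genes Prkcb rose by 1.84 ± 0.23, while Prkce, tested only through WT, fell by 2.18 ± 0.27, Prkch by 1.64 ± 0.29 and Prkcd by 0.84 ± 0.25. Pls3, among the risen genes, reached 1 TPM only in Tet2 KO. The Prkcd call was lost with ERCC scaling, quantile normalization and median centring.

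Beside Il4i1, 13 genes of tryptophan breakdown and the aryl hydrocarbon receptor were examined, of which 6 were tested. By limma 2 were lower and 0 higher, with 1 higher at an unadjusted p under 0.05. Of all tested genes 26.7% were lower and 22.1% higher. With ERCC scaling 2 of the list were higher, where 4942 of all 11919 tested genes were higher. Kmo, which encodes kynurenine monooxygenase, was listed at 0 and 0.03 TPM in Tet2 KO, against 5.70 and 5.98 TPM in WT (-2.75 ± 0.25), and the second faller was Haao. Kmo reached 1 TPM only in WT, so it was tested only through the group in which it was high. Ido1, Ido2 and Tdo2, which encode the enzymes of the first step of the kynurenine route, did not exceed 0.21 TPM anywhere. Of the other 17 calcium channel subunits only Cacna1d was tested. It stood at 2.39 and 4.03 TPM in Tet2 KO, against 0.65 and 0.46 TPM in WT (1.41 ± 0.31). Cacna1d reached 1 TPM only in Tet2 KO and so passed the filter through the group in which it was high.

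Markers of some other cell types also differed between the groups, in either direction. The counts stand beside 22.1% of all tested genes that rose and 26.7% that fell. Of 11 neutrophil genes 10 rose, and their summed level was 97383 and 76700 TPM in Tet2 KO, against 1566 and 1599 TPM in WT. Of 9 monocyte genes 1 rose and 5 fell, with sums of 2514 and 2721 TPM in Tet2 KO and 4049 and 4053 TPM in WT. Of 8 tested genes of tissue macrophages, red pulp included, 1 rose and 5 fell, with sums of 1191 and 1476 TPM in Tet2 KO and 3103 and 3123 TPM in WT. Hmox1 carried most of these sums, at 1041 and 1339 TPM in Tet2 KO, against 2299 and 2319 TPM in WT. At an unadjusted p under 0.05 in limma 3 genes of this list were higher. Among them were Spic (adjusted p = 0.0730) and Slc40a1 (adjusted p = 0.0657), the latter tested only through Tet2 KO. Lymphoid markers were low: the B cell list summed to 6.39 and 4.21 TPM in Tet2 KO and 9.67 and 8.59 TPM in WT, the T cell list to 6.34 and 10.5 TPM in Tet2 KO and 8.09 and 8.07 TPM in WT, and the NK cell list to 0.89 and 1.77 TPM in Tet2 KO and 5.10 and 3.07 TPM in WT. In the B cell list 1 of 2 tested genes rose and 1 fell, in the T cell list 0 of 3 were called at an adjusted or unadjusted p under 0.05 by limma, and in the NK cell list the 1 tested gene, Klrd1, fell. Klrd1 reached 1 TPM only in WT, and the risen B cell gene, Cd79a, only in Tet2 KO, so each was tested through the group in which it was high. The B cell factor Pax5 was listed at 0 in both Tet2 KO libraries, and the NK receptor Ncr1 at 0 in all 4. The ERCC share of TPM was 2.95% and 3.19% in Tet2 KO, against 4.66% and 4.62% in WT. The part of these differences in the falls of the 10 genes was not tested.

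**Figure D4:**
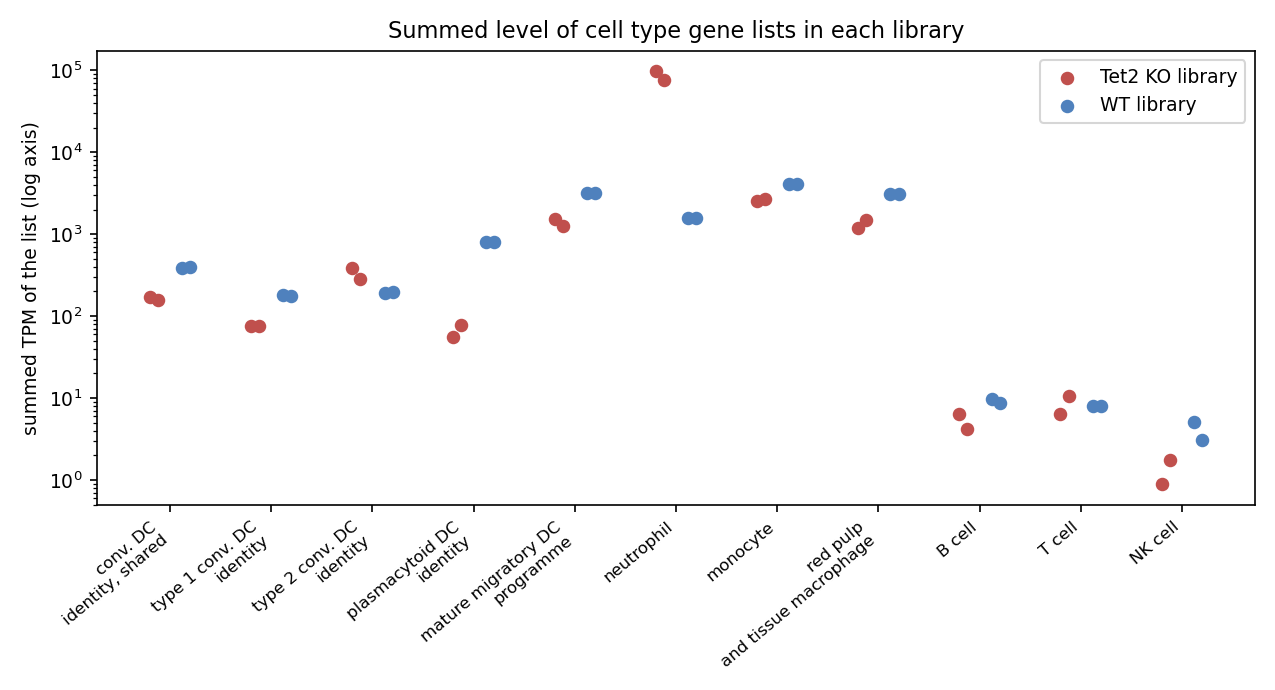
Summed TPM of cell type gene lists (vertical axis, logarithmic) in each library, with Tet2 KO left and WT right in each list. The neutrophil sum is higher in Tet2 KO at 97383 and 76700 TPM, against 1566 and 1599 TPM in WT, while the plasmacytoid sum is lower at 54.9 and 77.1 TPM in Tet2 KO, against 802 and 799 TPM in WT. Most of the plasmacytoid sum is carried in WT by Irf7, at 13.4 and 19.0 TPM in Tet2 KO, against 425 and 419 TPM in WT, and Bst2, at 12.9 and 24.5 TPM in Tet2 KO, against 251.2 and 255.1 TPM in WT.

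The genes whose profile over the 4 libraries lay closest to that of Il4i1 were Oas2, an interferon-induced synthetase of oligoadenylates, the syndecan Sdc3 and the guanylate-binding protein gene Gbp2, at Euclidean distances of 0.12, 0.23 and 0.24 between centred log2(TPM + 1) values. Oas2 stood at 3.07 and 5.90 TPM in Tet2 KO, against 117 and 114 TPM in WT. With 4 libraries in 2 groups, such closeness describes the size of the difference and the order of the Tet2 KO libraries. All 3 were higher in Tet2 KO replicate 2 than in replicate 1, as was Il4i1.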

How the data were processed

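RNA-seq values were the TPM deposited by the authors for 4 libraries, with 2 decimals and a sum of 1000000 per library over 24589 rows, 92 of them ERCC spike-ins, which were left out of tests. Per the submitters' processing notes, STAR, RSEM and mm10 were used, with the gene annotation not given in the sources used here. A strand-specific mRNA kit served, per the labels' protocols. Coordinates and lengths are those of GENCODE M21 (mm10), counted from 1.

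Depth was estimated from genes with 1 basic transcript of 600 to 2500 nt, whose low TPM multiplied by length minus 200 nt lies on multiples of 1 read; 72.8% to 75.6% lay within 0.2 of a whole multiple. These depths and read numbers are approximate, so no counting interval is given.

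Genes with at least 1 TPM in at least 2 libraries (11919) entered limma (version 3.58.1, R 4.3.3) as log2(TPM + 1), with abundance trend and robust variances, two-sided, Benjamini-Hochberg over all tested genes, threshold 0.05. The 2 Tet2 KO libraries were set against the mean of the WT libraries. The test was checked on simulated TPM in which 200 of 11919 genes were changed. Its noise was drawn from a fit without trend and robust estimation. There 14% of genes with a true log2 difference of -1 were called, 76.8% at -2 and 97.2% at -4. Of unchanged genes 0.184% were called. In the data far more genes were called, 3182 lower and 2629 higher, which makes the adjusted threshold less strict. The simulated shares are thus not the shares to be found or falsely called in the data. A gene that did not pass may still differ. Members and lists were chosen with earlier results of these data known; lists are described by counts and medians without a list test. Besides members and Tet2, each list's genes with the smallest adjusted p, up to 3 per direction, are named, and others only as defining markers, overlapping genes or counts of a list. Alternatives were pseudocounts of 0.1 and 5, filters of none and 5 TPM, limma without trend and robust estimation, 3 other scalings, both WT libraries as samples with and without a replicate block, and leaving out each library. Protein sequences were not used here.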

Additional observations from a re-analysis of the deposited data

How the results depend on the processing

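Of the 8 calls among the 10 genes, those of Fscn1, Cd83, Zbtb46, Siglech, Tcf4 and Il4i1 kept direction and side of the threshold under every alternative in which they were tested, except without the filter on low values, where the count of lower calls among the 10 genes was 0. Without the filter 295 of all genes were called lower and 123 higher. With ERCC scaling 1492 were lower and 4942 higher. Leaving out 1 library, the count of lower calls ran from 3192 to 5674 over all genes and from 8 to 9 among the 10 genes, and that of higher calls from 2651 to 4321 and from 0 to 1. Without Tet2 KO replicate 1 it was 4987 lower and 4321 higher, and without replicate 2 it was 5674 and 3974; without a Tet2 KO library the spread comes from the 2 WT libraries alone, which were then kept as separate samples. Marcksl1 turned to 0.50 with ERCC scaling, 0.0053 with quantile normalization, 0.0072 with median centring and 0.13 without Tet2 KO replicate 2 (called higher, adjusted p = 0.00279), and was called lower without replicate 1 (-0.31, adjusted p = 0.000201); the cause was not tested. Of the other 32 genes named by rule 27 lost their call without the filter, 5 with ERCC scaling and 5 with quantile normalization, and 0 turned in direction under any alternative. Tet2 lost its call without the filter and without trend and robust estimation. With both WT libraries as samples, 8 of the 10 genes were lower and 0 higher, both without a replicate block (4517 lower and 3520 higher over all genes) and with the replicate block (4461 and 3495). The deviations of same-numbered libraries correlated at -0.011 across 11919 genes, so the numbers give no pairing. Low TPM limits Siglech, Cacnb3 and, in Tet2 KO, Fscn1 and Il4i1, which rest on few reads.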

Other observations

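Within the Tet2 KO group, 7 of the 8 genes called lower stood higher in replicate 2 than in replicate 1, the exception being Marcks. Among all 3182 genes called lower 78.3% did so, and among all 11919 tested genes 65.2%. The summed neutrophil markers were lower in replicate 2, at 76700 TPM, than in replicate 1, at 97383 TPM. Cd83 relative to Marcks was 0.316 in Tet2 KO replicate 1 and 0.838 in replicate 2, against 3.48 and 4.03 in the WT libraries.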
